A study of Mus musculus with 49 samples.

Results

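Ribosome-bound RNA was compared with RNA of whole sorted cells for D1 dopamine receptor-expressing medium spiny neurons (D1-MSNs) of the nucleus accumbens (NAc) of mice. The comparison took every RiboTag D1 library labelled male (6) and every whole cell D1 library (9), which makes 15 of the 49 samples of the series. The series set RiboTag purification, whole cell-FACS and nuclear-FACS side by side in D1- and D2-MSNs, each library from 1 mouse. All mice were on a C57BL/6J background and none is described as treated. Their age is not given in the sources used here.

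RiboTag mice carried Drd1-cre and an Rpl22 allele in which Cre replaces exon 4 with an HA-tagged copy, so that ribosomes of Cre-expressing cells could be pulled down from a lysate of fresh tissue with an antibody to HA. Whole cell mice were heterozygous for a cytoplasmic fluorophore, not named in the labels, under the Drd1 promoter. Their fresh tissue was digested in 1 mg/mL papain for 45 minutes at 37 °C, triturated and sorted by fluorescence with DAPI in the buffer. Method and transgene thus differ together between the groups, as do lysis and enzymatic dissociation, and these cannot be told apart here. Both preparations were depleted of ribosomal RNA, reverse transcribed from total RNA with a stranded kit and amplified with 8 cycles of PCR.

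An mRNA in a cell passes from nuclear pre-mRNA with its introns, through export, to a spliced message that ribosomes read. A pulldown of tagged ribosomes holds the messages being read in the tagged cells, with the ribosomal RNA of the ribosomes themselves and whatever other RNA the antibody and the beads bring along. A sorted cell also holds its nucleus, so its library contains introns and nuclear non-coding RNA, while long processes of the neuron are often torn off during dissociation. D1-MSNs are GABAergic projection neurons that express the dopamine receptor Drd1 with the peptides dynorphin (Pdyn) and substance P (Tac1), in contrast with D2-MSNs, which express Drd2, Adora2a and enkephalin (Penk).

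Several libraries went against their labels or stood apart. Of the 6 RiboTag D1 libraries labelled male, numbers 1 to 4 held 0.0348 to 0.743 CPM (counts scaled to a library total of 1e6) over Ddx3y, Kdm5d, Uty and Eif2s3y, which are genes of the Y chromosome. Numbers 5 and 6 held 9.33 and 10.7 CPM over the same genes. The 5 RiboTag D1 libraries labelled female held 0 to 0.246 CPM, and the 9 whole cell libraries 106 to 237 CPM. Xist, the RNA that coats the inactive X chromosome of females, was at 1.76 to 8.25 CPM in numbers 1 to 4 and at 0.0321 and 0.0369 CPM in numbers 5 and 6. Xist was at 2.57 to 6.74 CPM in the libraries labelled female and at 3.14 to 8.79 CPM in the whole cell libraries. In the latter, median Xist lay near the background described below. The library labels are kept below, and results were also computed without numbers 1 to 4. That setting leaves only 2 RiboTag libraries, numbers 5 and 6. A call lost there can come from fewer libraries alone, so its loss does not by itself show a changed effect. The ninth whole cell library bears a D1 name in the count table but a D2 title, and a list of the study names it as a repeat of the first D1 library, so results were also computed without it. With it included, whole cell D1 libraries held Drd1 at 80.4 to 397 CPM and Drd2 at 12.3 to 63.2 CPM. Whole cell D2 libraries held 0.293 to 13.7 and 271 to 2240 CPM in the same order, so the markers of the ninth library followed its D1 name.

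Depth and content differed between the groups. RiboTag libraries totalled 27.1 to 43.1 M counts (M is 1e6) and whole cell libraries 7.88 to 18.8 M. After TMM scaling, which equalises the bulk of genes rather than the totals, effective library sizes were 5.43 to 7.71 M for RiboTag and 20.9 to 48.0 M for whole cell. Levels below are CPM of this effective size (effective CPM) unless another scale is named. A background of fragments spread over gene spans was measured on 1385 olfactory and vomeronasal receptor genes, which neurons of the NAc are not known to use. Extrapolated by span to all genes, it came to 13.1 to 50.4% of the counts of whole cell libraries and 0.0258 to 0.0342% of those of RiboTag libraries. Whole cell numbers 2, 5, 7 and 8 had 33.1 to 50.4% and the other 5 libraries 13.1 to 22.4%. The study states that every sample came from a different mouse, and p-values measure the spread between these libraries. The ninth whole cell library, listed as a repeat of the first, is counted as a separate library in them.

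**Figure D1:**
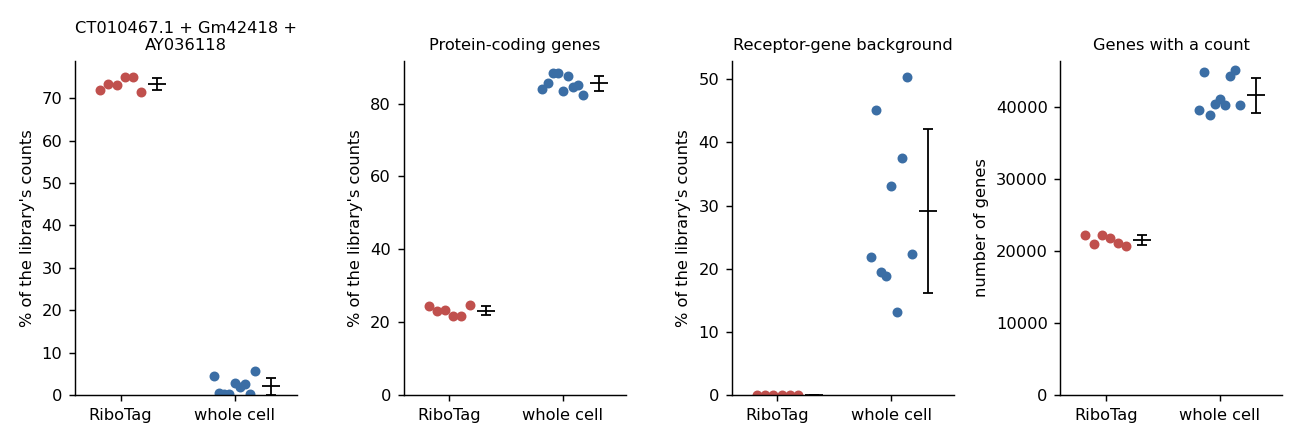
Share of counts per library in 3 gene sets and number of genes with a count (y axes) for 6 RiboTag and 9 whole cell D1 libraries (x axes), with the mean and SD beside the points. The groups do not overlap in any panel, and 4 whole cell libraries sit at 33.1% or more in the receptor-gene background.

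Ribosomal RNA and its neighbours filled the RiboTag libraries. The overlapping genes CT010467.1 (chr17:39846353-39848827, minus strand, annotated as rRNA), Gm42418 (chr17:39846958-39848788, plus strand) and AY036118 (chr17:39847113-39848035, minus strand) of GRCm38 took 71.6 to 75.1% of RiboTag counts and 0.282 to 5.6% of whole cell counts. Because a fragment was counted for every gene it touched and without strand, the same fragments enter all 3 of them. The 10 highest genes of the RiboTag group took 86.4 to 88.2% of its counts and 0.364 to 6.03% of whole cell counts. The groups were far apart in both measures (exact permutation test, two-sided p = 0.0002, adjusted p = 0.000236 over 13 measures).

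The remaining genes at the top of the RiboTag list were Cmss1 and Filip1l, which overlap on chromosome 16, Zc3h7a with the miRNA gene Gm23935 inside it, Lars2, Gm19951 and Arhgap21. Each held between 0.687 and 3.99% of RiboTag counts and at most 0.239% of whole cell counts. Gm23935 was at 85200, 95900 and 99700 effective CPM (lowest, median and highest RiboTag library) and at 0.667, 1.42 and 11.8 in whole cell. Its log2 difference was 14.83 ± 0.87 (SE), and 4.81 when fitted with DESeq2. The host Zc3h7a was at 11.73 ± 0.59, and fragments over Gm23935 were counted for both genes. Gphn, which encodes the inhibitory synapse scaffold gephyrin, was likewise at 31800 to 35000 effective CPM in RiboTag against 53.9 to 193 in whole cell, a level far above that of any other synaptic gene named below, in a gene whose span overlaps 6 others.

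By gene class, protein-coding genes held 21.6 to 24.6% of RiboTag counts and 82.4 to 88.4% of whole cell counts. Long non-coding genes, in RiboTag mostly Gm42418 and AY036118, held 45.9 to 48.9% against 8.69 to 12.7%. Genes annotated as miRNA, in RiboTag mostly Gm23935, held 1.71 to 2.08% against 0.0392 to 0.195%. The RiboTag share was the lower one for pseudogenes (0.0691 to 0.0813% against 0.798 to 1.43%) and for small nucleolar and Cajal body RNAs (0.000699 to 0.00101% against 0.0323 to 0.0872%). Each of these differences had exact permutation p = 0.0002 and adjusted p = 0.000236. Transcripts of the mitochondrial genome held 0.0416 to 0.0694% against 0.129 to 1.4% (exact permutation p = 0.0222, adjusted p = 0.0222), and this order turned, to 0.0422 points more in RiboTag, when the 10 highest genes of either group were left out of the totals (exact permutation adjusted p = 0.9). The order also turned in this way for protein-coding genes, to 5.18 percentage points more in RiboTag, and for long non-coding genes, to 4.26 points less (difference -4.26). RiboTag libraries detected 20636 to 22282 genes with at least 1 count, against 38843 to 45189 in whole cell libraries. Whole cell libraries had the smaller totals but the larger effective sizes and the larger receptor-gene background. The part of these in the number of genes detected was not tested.

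Across 32775 genes tested with edgeR's quasi-likelihood test, 8240 (25.1%) were higher in RiboTag and 19690 (60.1%) were higher in whole cell, at a Benjamini-Hochberg adjusted p of at most 0.05 and a log2 difference above 0.38. A difference beyond 4-fold was called for 1781 genes (5.43%) and 16100 genes (49.1%). The libraries of the groups did not overlap for 6248 genes (19.1%) higher in RiboTag and for 15094 genes (46.1%) higher in whole cell. The median log2 difference of all genes was -1.96, where a positive value means higher in RiboTag. Of the genes tested, 8128 had no count in any RiboTag library. For 15549 of the genes higher in whole cell (79.0%), the whole cell median was below 3 times the receptor-gene background expected from their span.

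How the libraries were scaled set the split of these calls. Under DESeq2's size factors the median of all genes shifted by -0.54, under totals without the 10 highest genes by -1.01 and under library totals alone by -3.84. The calls were then 3873 higher in RiboTag against 24222 higher in whole cell for totals without the 10 highest genes. With library totals alone they were 60 against 32497, and the median of each of the 33 gene lists described below was under 0. Directions are therefore given on the TMM scale, and the counts of each list below stand against 25.1% and 60.1% of all genes tested and its median against their -1.96. That reference holds many genes near background, since 55.9% of all genes tested had a whole cell median under 3 times it. Among the 14606 genes above 1 effective CPM in at least 2 libraries of both groups, 7729 (52.9%) were higher in RiboTag and 3631 (24.9%) higher in whole cell, with a median of 0.58. When the scaling was recomputed on those genes alone, 4644 were higher in RiboTag and 6104 higher in whole cell. For lists made up mostly of genes above this minimum, 52.9%, 24.9% and 0.58 are the nearer reference. Relative to 0.58, the medians of members above it were 1.22 for ribosomal protein genes, 0.59 for ubiquitin and proteasome genes and -0.8 for microglial markers. Relative to -1.96, the medians of all tested members were 3.74, 3.11 and 0.88. Without RiboTag numbers 1 to 4, 6211 genes were higher in RiboTag and 15311 in whole cell, and without numbers 5 and 6 the counts were 7862 and 18583.

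The D1 label was checked on 8 markers. In CPM of library total, median Drd1 was 25.8 in RiboTag D1 libraries and 7.15 in RiboTag D2 libraries, and 279 in whole cell D1 libraries against 5.89 in whole cell D2 libraries. Median Pdyn was 29.6 against 4.37 and 134 against 6.09 in the same order. D2 markers ran the other way, with median Penk at 154 in RiboTag D1 and 717 in RiboTag D2, and at 188 in whole cell D1 and 1180 in whole cell D2. Median Drd2 was 6.92 against 44.5 and 25.4 against 1040. Both preparations carried the markers of their label, and the medians of Drd1 lay closer together in RiboTag.

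Between methods, the 8 D1 markers split, with 3 higher in RiboTag, 3 higher in whole cell and a list median of 0.48 on the TMM scale. This median was -0.43 for totals without the 10 highest genes and -0.11 after background subtraction. Drd1 itself was at 114, 135 and 172 effective CPM (lowest, median, highest) in RiboTag and at 18.2, 105 and 145 in whole cell. The groups overlapped, and the log2 difference of 0.61 ± 0.34 (SE) was not called (edgeR adjusted p = 0.0949). In the 4 whole cell libraries of high receptor-gene background Drd1 was at 18.2 to 72.9, and in the other 5 at 105 to 145. Pdyn, the dynorphin precursor, was at 139, 154 and 202 in RiboTag and at 8.74, 50.7 and 67.2 in whole cell. No library overlapped, and Pdyn was called higher in RiboTag by 1.94 ± 0.33 (edgeR adjusted p = 1.9e-05).

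Chrm4, the muscarinic receptor of D1-MSNs, was higher in RiboTag by 2.08 ± 0.30. The substance P precursor Tac1 was higher by 0.99 ± 0.35, with overlapping libraries. Its call was lost without RiboTag numbers 1 to 4 (0.95, edgeR adjusted p = 0.155), after background subtraction (0.37, edgeR adjusted p = 0.289) and with DESeq2 (0.59, adjusted p = 0.0633). Sfxn1, a mitochondrial serine carrier, was lower in RiboTag, with log2 -1.20 ± 0.25, as were the transcription factor genes Ebf1 (-2.45 ± 0.20) and Eya1 (-2.10 ± 0.20). Eya1 and Ebf1 were the 2 D1 markers whose whole cell medians lay under 3 times the receptor-gene background. Isl1, a transcription factor of the D1 lineage, was not called (0.36 ± 0.22, edgeR adjusted p = 0.131).

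D2 markers were higher in RiboTag D1 libraries than in whole cell D1 libraries. All 5 found in the table passed, with a median of 3.35 on the TMM scale and no overlap between groups, and for 2 of them (Sp9 and Drd2) the whole cell median lay under 3 times the receptor-gene background. Penk was at 378, 840 and 1010 effective CPM in RiboTag and at 12.8, 82.8 and 116 in whole cell, a log2 difference of 3.55 ± 0.40 (edgeR adjusted p = 5.7e-08). Adora2a, the adenosine receptor of D2-MSNs, was at 21.7, 44.8 and 54.3 against 2.91, 3.83 and 5.66. The lowest RiboTag library was well above the highest whole cell library for both genes. The D2 genes Sp9 (3.37 ± 0.21), Gpr6 (3.33 ± 0.36) and Drd2 (1.91 ± 0.22) followed.

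Genes that D1- and D2-MSNs share were mostly higher in RiboTag, with 12 of 14 called, 1 higher in whole cell and a median of 1.97 on the TMM scale. Ppp1r1b, which encodes the dopamine signalling integrator DARPP-32, was at 532, 556 and 649 effective CPM in RiboTag and at 13.7, 99.4 and 148 in whole cell. The striatal phosphodiesterase Pde1b and adenylyl cyclase Adcy5 were higher in RiboTag by 2.04 ± 0.37 and 2.13 ± 0.31. Rarb, a retinoic acid receptor, was the member called higher in whole cell, with log2 -0.63, and this call was lost without RiboTag numbers 1 to 4 and without the ninth whole cell library.

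**Figure D2:**
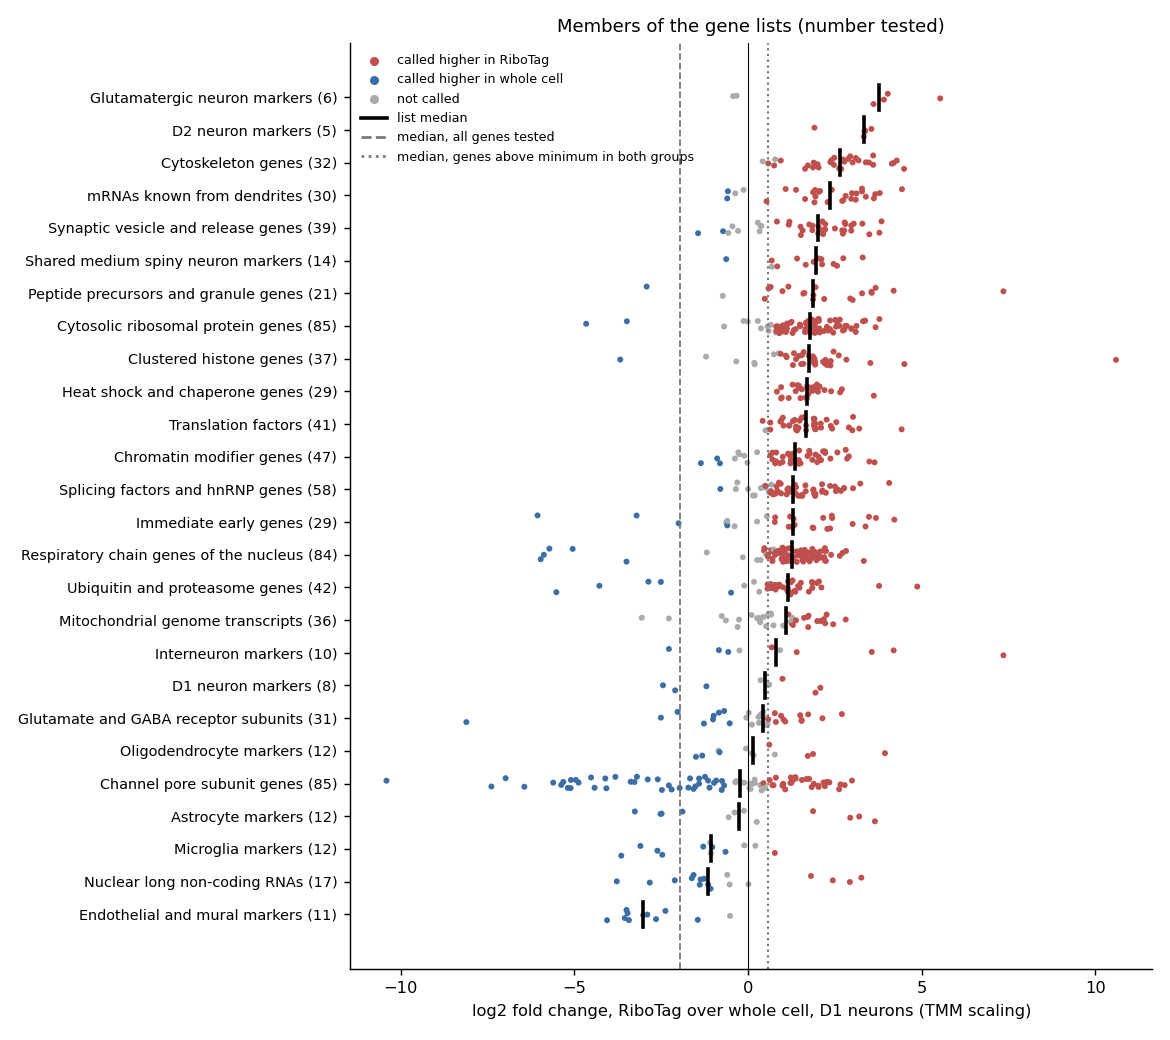
Log2 difference between RiboTag and whole cell D1 libraries on the TMM scale (x axis, positive is higher in RiboTag) of each tested gene in most of the gene lists (y axis, number tested in brackets), coloured by call, with list medians as bars. The medians of all genes, -1.96, and of genes above the minimum in both groups, 0.58, are drawn as broken lines, and with library totals alone the median of each list falls below 0.

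RNA of other cell types was measured in both groups. In bulk libraries fewer cells of a type and less RNA per cell cannot be told apart. Among 10 interneuron markers, 5 were higher in RiboTag and 3 higher in whole cell, with a median of 0.80 on the TMM scale that became -0.25 for totals without the 10 highest genes. Somatostatin (Sst), a peptide of NAc interneurons, was at 37.4, 45.4 and 51.1 effective CPM in RiboTag and at 0.147, 0.271 and 0.393 in whole cell. The log2 difference of 7.35 ± 0.21 (edgeR adjusted p = 1.4e-16) was the largest of the list. Neuropeptide Y (Npy) was higher in RiboTag by 4.19 ± 0.26 and cholecystokinin (Cck) by 3.56 ± 0.23. The acetylcholine synthesis gene Chat was the lowest of the list, with log2 -2.28. The summed level of the list was 124 to 148 effective CPM in RiboTag and 34.7 to 71.4 in whole cell, and 9 of the 10 lay under 3 times the whole cell background.

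Of 6 markers of glutamatergic neurons, which the NAc does not hold as projection neurons, 4 were higher in RiboTag and none higher in whole cell (median 3.76 on the TMM scale). The vesicular glutamate transporter Slc17a7 was at 70, 117 and 163 effective CPM in RiboTag and at 1.02, 2.83 and 3.26 in whole cell. No library overlapped, with log2 5.53 ± 0.26 (edgeR adjusted p = 2.19e-13). The cortical transcription factor Tbr1 was higher by 3.91 ± 0.21. The summed level of the list was 106 to 251 effective CPM in RiboTag and 18.7 to 39.2 in whole cell, where 5 of the 6 lay under 3 times the background.

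Glial and vascular markers differed by cell type. Of 12 astrocyte markers, 4 were higher in RiboTag and 4 in whole cell (median -0.25, and 0.37 after background subtraction). The glutamate transporter Slc1a2 was at 213 to 284 effective CPM in RiboTag and at 24.6 to 29.4 in whole cell, which is a log2 difference of 3.20 ± 0.16. The astrocyte list summed to 283 to 360 effective CPM in RiboTag and to 59.6 to 84.5 in whole cell. Slc1a2 alone made up most of the RiboTag sum, so the sum does not stand for the other members. The lowest member, Aldh1l1, was at -3.26, and 9 of the 12 lay under 3 times the whole cell background. Of 12 oligodendrocyte markers, 4 were higher in RiboTag and 3 in whole cell, and their median of 0.13 became -0.51 with DESeq2's size factors and -0.99 for totals without the 10 highest genes. Cnp, a myelin phosphodiesterase, was higher in RiboTag by 1.72 ± 0.29. The oligodendrocyte list summed to 182 to 229 effective CPM in RiboTag and to 67.1 to 87.2 in whole cell, where 10 of the 12 lay under 3 times the background.

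Vascular genes were higher in whole cell, while the share of microglial genes that were so was close to the 60.1% of all genes. Of 12 microglial markers, 7 were higher in whole cell and 1 in RiboTag (median -1.08, above the -1.96 of all genes), and 9 of the 12 lay under 3 times the receptor-gene background in whole cell. Of the 4 above the minimum in both groups, 2 were higher in whole cell and 1 in RiboTag. Their median was -0.22, against 0.58 for all genes above that minimum. The microglial list summed to 75.1 to 80.3 effective CPM in RiboTag and to 76.6 to 177 in whole cell. Of 11 endothelial and mural markers, 10 were higher in whole cell and none in RiboTag (median -3.02). Their RiboTag sum was 7.55 to 20.2 effective CPM against 54.8 to 119 in whole cell, with Pecam1 at -4.06 ± 0.26, Tek at -3.43 ± 0.28 and Flt1 at -2.90 ± 0.28, and 9 of the 11 lay under 3 times the whole cell background. Of 4 oligodendrocyte precursor markers, 2 were higher in whole cell and none in RiboTag, with sums of 3.77 to 8.44 and 6.94 to 18.6 effective CPM. Of 5 blood genes only the erythroid Alas2 passed the expression filter, and it was higher in whole cell (-1.51 ± 0.35). No marker of these cell types was at 0 in every library of a group. The part of these other cell types in the differences between methods was not tested.

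The translation machinery was higher in RiboTag. Of 85 genes of cytosolic ribosomal proteins, 74 were higher in RiboTag and 2 in whole cell, and 65 of them did not overlap between groups. Their median was 1.79 on the TMM scale, against -1.96 for all genes and 0.58 for genes above the minimum in both groups. Their summed level was 2150 to 2290 effective CPM in RiboTag and 149 to 889 in whole cell. Rpl19 was at 91.6, 94.2 and 102 in RiboTag and at 2.96, 14.3 and 19 in whole cell, a log2 difference of 2.97 ± 0.31 (edgeR adjusted p = 1.58e-08). The lowest member was Rpl3l, a paralog of striated muscle, at 0 to 0.354 effective CPM in RiboTag and 0.539 to 2.01 in whole cell. Without RiboTag numbers 1 to 4, 63 were higher in RiboTag and 2 in whole cell.

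Rpl22, which encodes the tagged protein itself, was higher in RiboTag by 1.06 ± 0.26 (edgeR adjusted p = 0.00092), at 13.1 to 16.9 effective CPM against 2.78 to 12.8. After background subtraction the difference was 0.53 on the log2 scale and no longer called (edgeR adjusted p = 0.0513), and with the subtraction on genes above the minimum in both groups it was 0.12 (edgeR adjusted p = 0.563). Its paralog Rpl22l1 was not called (-0.01 ± 0.42, edgeR adjusted p = 0.99). Of 41 translation factors, 40 were higher in RiboTag and none in whole cell (median 1.67). The elongation factors Eef1a2 and Eef2, which deliver and move tRNAs on the ribosome, were higher by 3.20 ± 0.34 and 3.02 ± 0.31, and the initiation factor Eif1 by 4.42 ± 0.33.

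Messages of this class are known to start with a pyrimidine tract through which their translation is regulated, and the bases around the annotated starts were searched for such letters. A run was counted where a C within 15 bases of the annotated start was followed without a break by at least 6 further bases of C or T, on the strand of the gene and whatever base came before that C. Of 64 ribosomal protein genes that matched RefSeq promoters of GRCm38.p6, 35 (54.7%) held one, against 19.4% of all 27025 genes with a promoter in that table. The share was 53.6% (30 of 56) of the members higher in RiboTag and 62.5% (5 of 8) of the others. For translation factors it was 31.2% (10 of 32) and for protein-coding genes above the minimum in both groups 21.4%. Each line gives 20 bases before and 10 from the annotated start, 5′ to 3′, with the run in capitals, for Rpl19 (chr11:98026904-98026933, plus strand), Rpl4 (chr9:64173367-64173396, plus), Rps6 (chr4:86857358-86857387, minus), Rplp2 (chr7:141447631-141447660, plus), Eef1a2 (chr2:181157006-181157035, minus) and the tagged gene Rpl22 (chr4:152324416-152324445, plus), in which no run was found. Where a gene had several RefSeq promoters, 1 is shown. The marked runs of Rpl19, Rpl4 and Eef1a2 end before the annotated start, so they are not shown to lie in the message, and in Rpl4, Rplp2 and Eef1a2 further pyrimidines precede the marked C.
Rpl19: gggcttgggCTCTCCCCTTCgcagataatg
Rpl4: agtctttCCTTTTCCTgtgggagcagccgg
Rps6: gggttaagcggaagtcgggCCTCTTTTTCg
Rplp2: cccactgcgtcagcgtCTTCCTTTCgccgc
Eef1a2: gtttttCTCTCCTggtctgcgttctcgctc
Rpl22: atcagcgctgcttctggaatgttccagctc

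The log2 differences of these genes were 2.97 for Rpl19, 1.79 for Rpl4, 3.37 for Rps6, 1.96 for Rplp2, 3.20 for Eef1a2 and 1.06 for Rpl22. The 6 were picked as examples after their values were seen.

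Genes of energy metabolism followed. Of 84 respiratory chain genes of the nuclear genome, 73 were higher in RiboTag and 5 in whole cell (median 1.27 on the TMM scale). Atp5b, the catalytic subunit of ATP synthase, was at 525, 587 and 627 effective CPM in RiboTag and at 21.8, 137 and 210 in whole cell (log2 2.24 ± 0.36). The lowest member was Cox4i2, a subunit isoform of lung, at 0 to 0.156 effective CPM in RiboTag and 1.01 to 2.87 in whole cell. For totals without the 10 highest genes the calls of this list were 36 and 11. Of 36 transcripts of the mitochondrial genome, which mitochondrial and not cytosolic ribosomes read, 15 were higher in RiboTag and none in whole cell (median 1.08, and 0.02 for totals without the 10 highest genes), and none was free of overlap between groups. Whole cell number 5 held 1.4% of its counts there and the other whole cell libraries 0.129 to 0.498%. The ribosomal RNA gene mt-Rnr1 was higher in RiboTag by 2.45 ± 0.57, while mt-Rnr2 was not called (0.57 ± 0.48). Without RiboTag numbers 1 to 4 the list had 4 members higher in RiboTag, and without the 4 whole cell libraries of high background it had 24.

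Genes of neuronal processes were higher in RiboTag. Of 30 mRNAs known from dendrites, 26 were higher in RiboTag and 2 in whole cell (median 2.35 on the TMM scale), and for 26 all RiboTag libraries lay above all whole cell libraries. Camk2a, the kinase subunit whose message is a classic of dendritic transport, was at 1300, 1410 and 1420 effective CPM in RiboTag and at 26, 66 and 139 in whole cell. Its lowest RiboTag library was far above the highest whole cell library, with log2 4.43 ± 0.32 (edgeR adjusted p = 6.03e-11). The postsynaptic Ddn (dendrin) was higher by 3.28 ± 0.34 and Cyfip2, a regulator of actin and translation, by 2.71 ± 0.29. Bdnf, the neurotrophin, was the lowest of the list at -0.60 ± 0.25, but turned to 2.74 after background subtraction, and its call was lost without RiboTag numbers 1 to 4 (edgeR adjusted p = 0.162).

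Of the lists that mark no cell type, cytoskeleton genes had the highest median, 2.65 on the TMM scale, with 30 of 32 higher in RiboTag and none in whole cell. The microtubule-associated protein gene Map1a was at 1610, 1760 and 1850 effective CPM in RiboTag and at 27.3, 94.1 and 195 in whole cell (log2 4.28 ± 0.35, edgeR adjusted p = 3.85e-10). Actb, cytoplasmic actin, was higher by 2.73 ± 0.36. Of 39 synaptic vesicle and release genes, 30 were higher in RiboTag and 2 in whole cell (median 2.02). Among them were the complexin gene Cplx2 (3.29 ± 0.34) and the SNARE gene Snap25 (2.22 ± 0.35), and the lowest was Syn3 (-1.44). Of 21 peptide precursor and granule genes, 19 were higher in RiboTag and 1 in whole cell (median 1.88), led by Sst and with Pnoc, the nociceptin precursor, lowest (-2.92). The granin Chgb was at 389 to 448 effective CPM in RiboTag against 12.9 to 86.4.

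All 29 heat shock and chaperone genes tested were higher in RiboTag on the TMM scale (median 1.70), 25 of them without overlap, and 24 were called without RiboTag numbers 1 to 4. Hsp90ab1 was at 1610, 1670 and 1790 effective CPM in RiboTag and at 54.7, 303 and 404 in whole cell. Hsp90aa1, the inducible form, was higher by 3.62 ± 0.40 and Hspa8 by 1.73 ± 0.38. Of 42 ubiquitin and proteasome genes, 34 were higher in RiboTag and 5 in whole cell (median 1.15). The polyubiquitin gene Ubb led them with 4.87 ± 0.38, at 496 to 569 effective CPM against 3.91 to 33.8.

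Receptor and channel genes were called in both directions. Of 31 subunits of glutamate and GABA receptors, 12 were higher in RiboTag and 9 in whole cell, and their median of 0.44 became -0.02 with DESeq2's size factors and -0.51 for totals without the 10 highest genes. The AMPA receptor genes Gria2 (0.95 ± 0.33) and Gria1 (0.48 ± 0.30, not called) were among the genes with the highest levels per exonic kilobase. Grin1, the obligate NMDA receptor subunit, was the highest of the list at 2.70. Of 85 pore subunit genes of calcium, sodium and potassium channels, 31 were higher in RiboTag and 40 in whole cell (median -0.23). For 41 of the 85, the whole cell median lay under 3 times the receptor-gene background. Among the 65 above the minimum in both groups the order turned, with 31 higher in RiboTag and 20 in whole cell. Their median was 0.39, against 0.58 for all genes above that minimum. The long potassium channel genes Kcnd2 (-0.92 ± 0.33) and Kcnq5 (-0.76 ± 0.31) were lower in RiboTag, and the inward rectifier Kcnj4, which is active at rest in MSNs, was higher (2.17 ± 0.25). The calls of Gria2, Kcnd2 and Kcnq5 were lost without RiboTag numbers 1 to 4 (edgeR adjusted p = 0.116, 0.133 and 0.211), and that of Gria2 after background subtraction (edgeR adjusted p = 0.252).

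**Figure D3:**
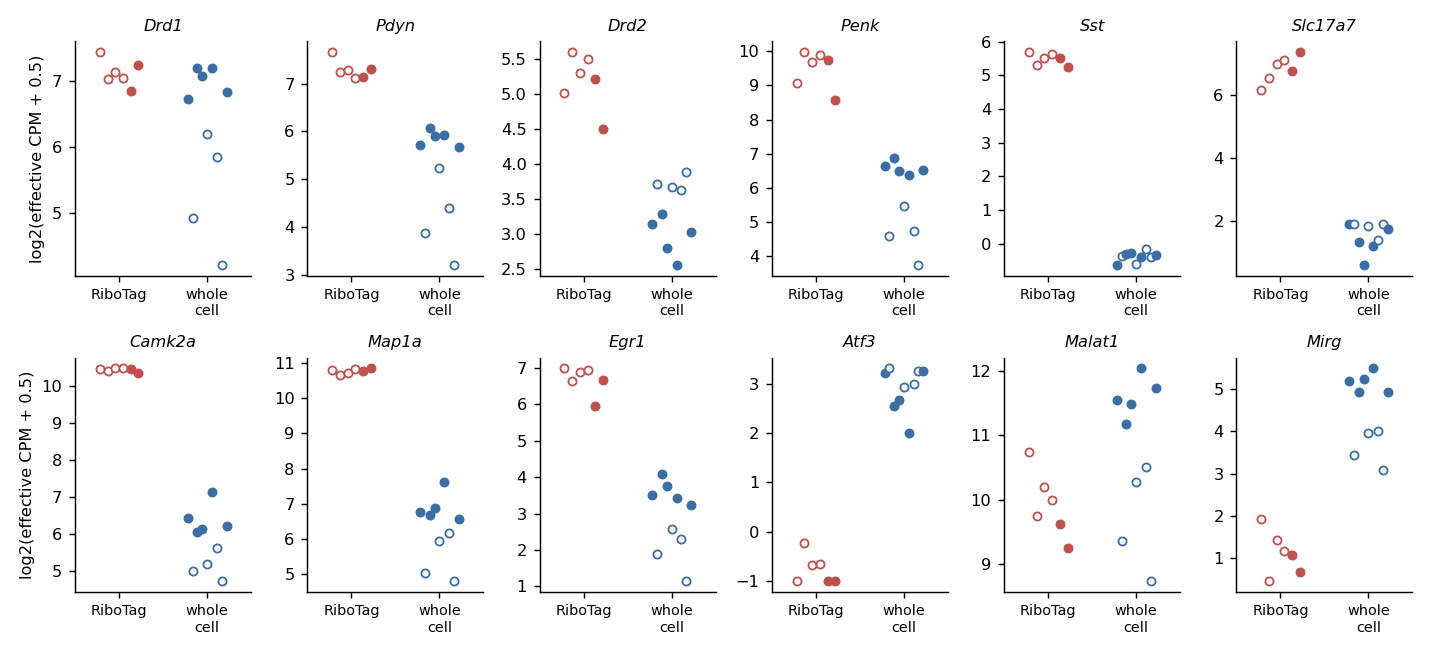
Level of 12 genes in each of 6 RiboTag and 9 whole cell D1 libraries (x axes), as log2 of effective CPM with a constant of 0.5 added (y axes). Open symbols are RiboTag numbers 1 to 4 and the 4 whole cell libraries of high receptor-gene background, which are the lowest whole cell libraries for Drd1, Pdyn and Malat1.

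Nuclear long non-coding RNAs were called in both directions. Of 17, 10 were higher in whole cell and 4 in RiboTag (median -1.15), a share close to the 60.1% of all genes higher in whole cell and a median above their -1.96. Of the 16 above the minimum in both groups, 9 were higher in whole cell and 4 in RiboTag (median -1.11). Over all genes above that minimum, 24.9% were higher in whole cell and the median was 0.58, so this list lay lower in RiboTag than they did. Malat1, which is retained in nuclear speckles, was at 612, 944 and 1700 effective CPM in RiboTag and at 427, 2300 and 4200 in whole cell. The groups overlapped, and the log2 difference of -1.08 ± 0.42 (edgeR adjusted p = 0.0215) was -1.63 without RiboTag numbers 1 to 4, where it was not called (edgeR adjusted p = 0.07). Within the 5 whole cell libraries of lower background Malat1 was at 2300 to 4200, and in the other 4 at 427 to 1460. The imprinted transcripts of chromosome 12, which lie in 1 cluster, were at -1.15 ± 0.42 for Meg3, -1.62 ± 0.36 for Rian and -3.78 ± 0.42 for Mirg. The call of Meg3 was lost without RiboTag numbers 1 to 4 (log2 -1.68, edgeR adjusted p = 0.067). Mirg was free of overlap, at 0.873 to 3.28 effective CPM in RiboTag against 7.99 to 44.6.

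Further members lower in RiboTag were Pvt1 (-2.83 ± 0.19), Nespas (-2.11 ± 0.39), Snhg11 (-1.57 ± 0.41), Airn (-1.39 ± 0.20), Firre (-1.37 ± 0.29) and Kcnq1ot1 (-1.27 ± 0.31). For 6 of the 17, Pvt1, Airn and Firre among them, the whole cell median lay under 3 times the receptor-gene background. The medians of these 3 were 48.8, 18.3 and 16.2 effective CPM over predicted backgrounds of 23.2, 8.11 and 5.43. After background subtraction Pvt1 was at -2.77 and Airn at -1.30, and the call of Firre was lost (edgeR adjusted p = 0.065). Snhg14, Miat and Neat1 were not called. The 4 higher in RiboTag were Gm26917 (3.26 ± 0.26), Peg13 (2.44 ± 0.31), Xist (2.93 ± 0.53) and its antisense partner Tsix (1.81 ± 0.52), of which Xist and Tsix share fragments. Gm26917 (chr17:39843013-39846341, plus strand) lies directly beside the rRNA gene CT010467.1, which begins at 39846353 and is among the genes that fill RiboTag libraries. Xist was at 0.177 to 40.3 effective CPM over the RiboTag libraries. Without numbers 1 to 4 Xist turned to -3.29 and Tsix to -4.42, so their direction came from those libraries. The whole cell medians of Xist and Tsix, 1.82 and 4.24 effective CPM, lay near their predicted backgrounds of 1.56 and 3.65.

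Of 84 small nucleolar and Cajal body RNAs tested, 58 were higher in whole cell and 3 in RiboTag, and without RiboTag numbers 1 to 4 the calls were 21 and 2. Their median was -3.20, or -2.12 with members at 0 in RiboTag set to the bound that 3 counts over the group allow. These genes guide modification of ribosomal and spliceosomal RNA in the nucleus and most sit in introns of other genes. Scarna10 had 5 counts over all RiboTag libraries against 2.91 to 45.5 effective CPM in whole cell. Among other structural RNAs, the RNase P RNA Rpph1, an enzyme of tRNA maturation in the nucleus, was at 42.5 to 51.4 effective CPM in RiboTag and at 108, 577 and 1650 in whole cell (log2 -3.67 ± 0.49). The signal recognition particle RNAs Rn7s1 and Rn7s2, which bind cytosolic ribosomes, were higher in RiboTag by 3.23 ± 0.64 and 2.09 ± 0.64, or by 4.16 and 3.22 without the ninth whole cell library. Rn7s1 was at 277 to 350 effective CPM in RiboTag and at 2.56 to 164 in whole cell, so the groups did not overlap. The Rn7s genes are near-identical copies, so their separate values are uncertain, and the call of Rn7s2 was lost without RiboTag numbers 1 to 4 (edgeR adjusted p = 0.101).

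Messages of nuclear proteins were higher in RiboTag on the TMM scale. Of 58 splicing factor and hnRNP genes, 46 were higher in RiboTag and 1 in whole cell (median 1.30), for example Hnrnpab (2.24 ± 0.30) and Rbfox3 (1.21 ± 0.18). The very long Rbfox1 was not called (-0.35 ± 0.31). Of 47 chromatin modifier genes, 38 were higher in RiboTag and 3 in whole cell (median 1.34), with the chromatin remodellers Chd3 at 2.85 ± 0.27 and Chd4 at 1.99 ± 0.30. Of 37 clustered histone genes, 30 were higher in RiboTag and 1 in whole cell (median 1.75), and without RiboTag numbers 1 to 4 the calls were 17 and 1. Members of this family are near-identical and multi-mapped fragments were dropped, which leaves single histone genes uncertain.

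Immediate early genes, which neurons switch on within minutes of activity or stress, were called in both directions, mostly higher in RiboTag. Of 29 tested, 20 were higher in RiboTag and 4 in whole cell (median 1.28 on the TMM scale). Without RiboTag numbers 1 to 4 the calls were 14 and 3. Egr1 was at 62, 110 and 127 effective CPM in RiboTag and at 1.71, 8.86 and 16.4 in whole cell, with log2 3.68 ± 0.36 (edgeR adjusted p = 6.45e-09). Its relatives Egr3 (3.48 ± 0.29) and Egr4 (3.38 ± 0.32), the nuclear receptor Nr4a2 (4.21 ± 0.25), Jund (3.01 ± 0.29), the synaptic Arc (2.41 ± 0.32), Per1 (2.42 ± 0.22), Jun (2.36 ± 0.34) and Ier5 (2.28 ± 0.31) were also higher and free of overlap between groups. Klf6 (2.16 ± 0.19), Dusp1 (1.88 ± 0.30), Fosb (1.86 ± 0.22), Junb (1.34 ± 0.30), Dusp6 (1.31 ± 0.35), Nr4a3 (1.28 ± 0.25), Gadd45b (1.28 ± 0.32), Nr4a1 (1.21 ± 0.32), Fosl2 (1.17 ± 0.23), Homer1 (0.78 ± 0.33) and Fos (0.77 ± 0.25) made up the 20.

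Atf3, a transcription factor of cell stress and injury, was the lowest. It had 4 counts over the 6 RiboTag libraries, at 0 to 0.349 effective CPM, and lay at 3.47, 7.41 and 9.42 in whole cell, where the receptor-gene background predicts 3.26. No library overlapped, and the log2 difference was -6.06 ± 0.45 (edgeR adjusted p = 8.64e-11). Zfp36 (-3.21 ± 0.87, from 2 counts in RiboTag), Klf4 (0 to 0.519 effective CPM in RiboTag, 0.657 to 1.4 in whole cell) and Bdnf were the others higher in whole cell. All 4 had whole cell medians under 3 times the receptor-gene background, as had 7 of the 29 tested. The medians were 0.589 for Zfp36, 1.01 for Klf4 and 3.5 for Bdnf, over predicted backgrounds of 0.237, 0.364 and 3.57. Without RiboTag numbers 1 to 4, Atf3 was at -10.92 and Zfp36 at -1.52. Egr2, Gadd45g, Npas4, Btg2 and Klf2 were not called. Fos and Homer1 lost their sign for totals without the 10 highest genes (-0.22 and -0.11), and the calls of Homer1, Fos, Fosl2, Dusp6, Nr4a3, Nr4a1, Bdnf and Zfp36 were lost without RiboTag numbers 1 to 4. In that setting of 2 RiboTag libraries Nr4a3 was at 0.38, Fosl2 at 0.62 and Bdnf at -0.70. Fos and Homer1 were not called with DESeq2 (adjusted p = 0.23 and 0.146), and neither they nor Nr4a1 after background subtraction (edgeR adjusted p = 0.457, 0.433 and 0.063).

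Among protein-coding genes, the exonic share of a gene went with its difference between methods. For genes above the minimum in both groups, those with exons over more than 50% of the span were higher in RiboTag in 82.6% of 1578 cases and higher in whole cell in 1.84% (median 1.44). With exons over 20 to 50% of the span the shares were 66.1% and 10.6% of 3792 genes, and with 5 to 20% they were 47.3% and 28.8% of 5296. Below 5%, 341 of 1702 genes were higher in RiboTag and 60.5% higher in whole cell (median -0.84). Counts here were made over whole gene bodies, so that intronic fragments enter the level of a gene. By length, 79.3% of the 2505 such genes under 10 kb were higher in RiboTag and 2.51% in whole cell (median 1.33), against 65 and 372 of the 540 genes over 300 kb (median -1.03). Over all protein-coding genes tested, medians by exonic share kept their order, from -1.62 below 5% to 0.12 above 50%. Medians by length did not, at -1.73 under 10 kb and -0.32 both from 10 to 30 kb and from 30 to 100 kb. They were -0.62 from 100 to 300 kb and -1.11 for the 566 genes over 300 kb. Of these 566, 367 lay under 3 times the whole cell background. Nrxn3 and Lsamp, cell adhesion genes of this length among the 10 highest of the whole cell group, were at -0.94 ± 0.30 and -1.02 ± 0.28. Their calls were lost without RiboTag numbers 1 to 4 (log2 -1.11 and -1.17, edgeR adjusted p = 0.0775 and 0.055).

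**Figure D4:**
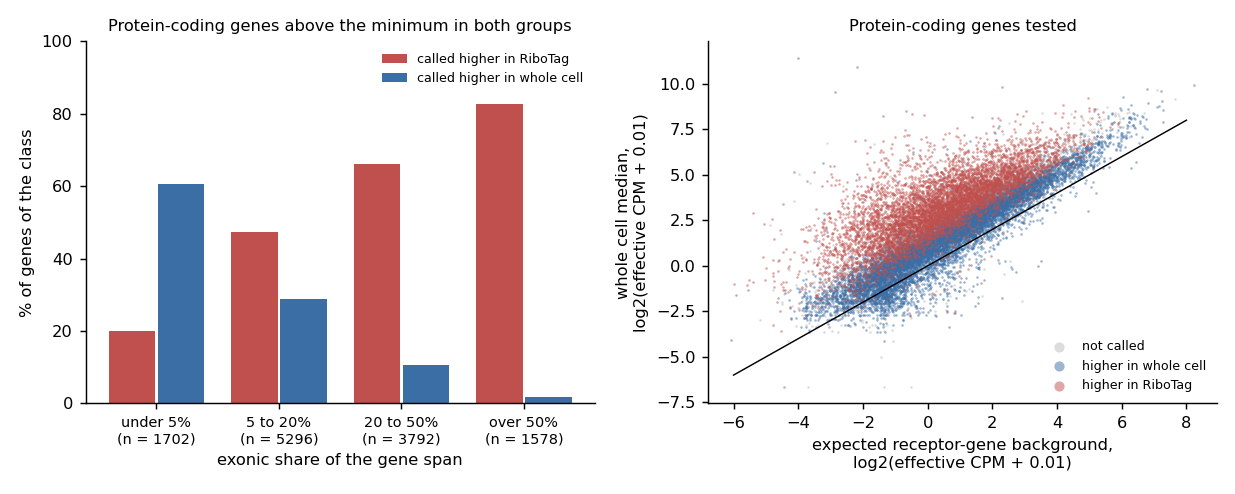
Left, percentage of protein-coding genes called higher in RiboTag or in whole cell (y axis, TMM scale) by exonic share of the gene span (x axis), for genes above the minimum in both groups, where 82.6% of the class with the most exon and 341 of 1702 genes of the class with the least were higher in RiboTag. Right, whole cell median against the background expected from receptor genes (log2 of effective CPM with a constant of 0.01 added) per protein-coding gene, where the line marks equality and genes higher in whole cell lie mostly along it.

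The protein-coding genes with the largest excess in whole cell had few or no RiboTag counts. Gm10800 had 2 counts over all RiboTag libraries and 1530 to 4050 effective CPM in whole cell, and Gm21738 (1090 to 2730) and Gm10801 (353 to 1160) had none in RiboTag, which makes them at least 25400-fold and 9240-fold lower there. The symbols carry no known function, and multi-mapped fragments were dropped. Next came genes of other tissues: Ofcc1 was at 23.1, 40.1 and 50.8 effective CPM in whole cell, where the background predicts 24.6, and was at least 518-fold lower in RiboTag. Morc1 and Dmrt1 of germ cells, Lmx1a of dopamine neurons and the kidney endocytic receptor Lrp2 were at least 318-fold, 192-fold, 300-fold and 269-fold lower, with whole cell medians of 25.3, 16.2, 23.2 and 20.4 over predicted backgrounds of 13.6, 6.74, 10.9 and 11. The whole cell medians of these 5 genes were within 3 times that background, and those of Gm10800, Gm21738 and Gm10801 were far above it.

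Of 1063 receptor genes of smell and pheromones tested, 1049 were higher in whole cell and 2 in RiboTag (median -6.65, or -2.85 with members at 0 set to the bound). After the background was subtracted from every gene, 6504 genes were higher in RiboTag and 15711 in whole cell. Of the original calls, 6279 higher in RiboTag and 15277 higher in whole cell were shared with that fit. Restricted further to genes above the minimum in both groups, before and after the subtraction, 585 protein-coding genes that overlap no other gene were higher in whole cell with and without the subtraction, and without overlap between libraries. Named from these after their values were seen, the estrogen receptor gene Esr1 was at 0.625, 1.37 and 2.48 effective CPM in RiboTag and at 32.9, 46 and 59.2 in whole cell, over a predicted background of 26.9. Dpf3, a chromatin remodelling subunit (-4.65 ± 0.28), and Hmcn2, a matrix protein (-4.69 ± 0.34), had whole cell medians of 44.5 and 23.3 over backgrounds of 18.7 and 9.99.

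On the RiboTag side, 12 genes were named as the largest differences among protein-coding genes that overlap no other gene, lie above the median level and have no overlap between libraries. Beside Lars2, given above, they included Id2, an inhibitor of helix-loop-helix factors, at 3.44, 8.47 and 13.6 effective CPM against 0.0253, 0.27 and 0.375 (log2 5.08 ± 0.34). Hcfc1, a transcriptional cofactor, was at 214, 220 and 609 against 4.66, 11.9 and 22.3 (4.71 ± 0.34), where RiboTag number 1 held the highest value. Rtl8a (4.86 ± 0.37) and Rtl8b (4.28 ± 0.37), genes of the X chromosome that derive from a retrotransposon, Srp54b (4.57 ± 0.45), the protein of the signal recognition particle, and Gm8797 (5.33 ± 0.55, and 6.15 without the ninth whole cell library) stood beside Ubb, Eif1, Nr4a2, Sst and Npy. Rtl8a and Rtl8b are near-identical copies, and Srp54b has close copies too, so their separate values are uncertain.

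Whether the method effect was particular to D1-MSNs was tested as an interaction with the D2 libraries labelled male (6 RiboTag and 6 whole cell). Of 34488 genes, 8 (0.0232%) had a difference (RiboTag minus whole cell) that was higher in D1 and 23 (0.0667%) one that was higher in D2. Ribosomal protein genes had a median of 1.72 in D1 and 2.22 in D2, mRNAs known from dendrites 2.28 and 1.99, very long genes -1.22 and -1.39, and endothelial and mural markers -3.16 and -2.99. Medians lay further apart for D1 markers (0.42 and 1.68), D2 markers (3.26 and 1.72), glutamatergic markers (3.63 and 2.02), transcripts of the mitochondrial genome (0.96 and 2.24), microglial markers (-1.25 and -2.20) and small nucleolar and Cajal body RNAs (-3.18 and -4.37). The difference between cell types was not tested for the lists.

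Markers of the 2 cell types were among the 31. Drd2 had a method effect of 1.75 in D1 and -1.24 in D2, an interaction of 2.99 (edgeR adjusted p = 0.000335), and Adora2a 3.22 and 1.44 (1.78, edgeR adjusted p = 0.0329). Of 8 D1 markers, 2 were called: Tac1 had 0.94 in D1 and 3.26 in D2 (-2.32, edgeR adjusted p = 0.0305) and Sfxn1 -1.27 and 0.38 (-1.65, edgeR adjusted p = 0.003). The other D1 markers were not called, with interactions of -2.85 for Drd1 (edgeR adjusted p = 0.0706), -1.59 for Chrm4, -1.08 for Pdyn, 0.07 for Isl1, 0.65 for Eya1 and 0.81 for Ebf1, and of the D2 markers Gpr6 (1.54), Penk (1.08) and Sp9 (-0.01) were not. The call of Adora2a was lost with DESeq2's size factors (edgeR adjusted p = 0.0721), without the ninth whole cell library (0.0834) and with the replicate block (0.094). Without the 6 RiboTag libraries of low Y-linked counts (4 D1 and 2 D2), none of the 4 called markers was called (edgeR adjusted p = 0.759 for Drd2 and 1 for the others). The interactions were then 2.55 for Drd2 and 1.43 for Adora2a, from fewer libraries.

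Other genes with an interaction were Ccn2, a matricellular growth factor gene, with 5.56 in D1 and 0.78 in D2, and the overlapping Gm15270. The cholinergic genes Chat (-2.43 and -0.37) and Slc5a7 (-0.98 and 2.30), as well as Ndnf of interneurons (-0.52 and 4.55), were named after their values were seen. The 8 with the largest effect in favour of D2, among them Gm10180 and Gm10123, had no count in at least 5 of the 6 whole cell D2 libraries, so that their fitted values are no measure of size. Without the 6 RiboTag libraries of low Y-linked counts, 1 gene was called in each direction, Gm15270 and Ndnf, and with DESeq2 there were 37 and 70. The calls of Chat and Slc5a7 were also lost with the replicate block (edgeR adjusted p of 0.0627 for both), and that of Slc5a7 with DESeq2's size factors (0.0722).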

How the data were processed

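Fragments had been aligned by the authors to GRCm38 with HISAT2 2.0.5 and counted with featureCounts over Ensembl gene bodies, without strand, for every gene touched, and multi-mapped fragments were dropped. The deposited values were raw counts of 52636 genes, and the authors pooled no replicates. Spans and exons came from a GRCm38 annotation that matched 99.72% of genes. Groups followed the labels, and lanes of 1 D2 library were summed. The members and gene lists were chosen with earlier results of these data known.

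Genes above 1 CPM in at least 2 of the 15 libraries were tested with edgeR 4.0.16 (R 4.3.3, TMM, quasi-likelihood test, two-sided, Benjamini-Hochberg adjustment over all genes tested). A call needed an adjusted p of at most 0.05 and a log2 difference above 0.38. The interaction with D2 was fitted over 4 group means. Shares of counts were compared by exact permutation (numpy 2.4.6). In simulated data, 200 of 32775 genes were changed by 1.5 on the log2 scale. The D1 test recovered 59.5% of these 200, and 4.8% of its calls were false. In the measured data far more genes were called, 8240 higher in RiboTag and 19690 higher in whole cell. The share of false calls at that extent of difference was not tested. Bounds used a floor of 3 counts over the group and cover counting error only. Named were the 10 genes with most counts in each group, the 12 protein-coding genes with the largest difference in each direction (called, without overlap of genes or libraries, above the median level), the 3 members per list with the highest level per exonic kilobase, all tested D1, D2, nuclear RNA, bait and immediate early genes, and up to 8 interaction genes in each direction, of which only some are described. Some genes that this rule names are not reported here. Grin1, Cox4i2, Rpl3l, Syn3, Pnoc, Rarb, Chat, Slc5a7, Ndnf, Esr1, Dpf3, Hmcn2, Rps6 and Rplp2 lie outside this rule and were chosen after their values were seen. Alternatives covered DESeq2 1.42.0, scaling, filters, background subtraction, omitted libraries and a replicate block.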

Additional observations from a re-analysis of the deposited data

Results flagged for a closer look

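In some groups of libraries 1 value lay far from the rest by Dixon's criterion. Chance gives this in about 1 of 20 groups, and 28 of 314 groups tested had one. Values are effective CPM unless a share is named, and their causes were not tested.

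RiboTag number 1 was the high library for Hcfc1 (609 against 214 to 306 in the others), Pdyn (202 against 139 to 158), Kcnq5 (243 against 184 to 202), Kcnq1ot1 (33.3 against 11 to 18.4), Firre (9.69 against 4.54 to 6.26), Klf2 (0.625 against 0 to 0.184) and the share of counts in genes of the TEC class (0.0408% against 0.0269 to 0.0317%). RiboTag number 3 was high for Jund (58 against 42.7 to 46.8) and Dusp1 (8.18 against 3.19 to 4.97), and number 5 was low for Nr4a1 (10.8 against 18.5 to 22.3). Zfp36 (0.368) and Gm10180 (0.135) stood above 0 in 1 RiboTag library, number 6 and number 4, and were at 0 in the others.

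Whole cell number 5 was high for the mitochondrial share (1.4% against 0.129 to 0.498%), mt-Rnr1 (652 against 27.1 to 183), mt-Rnr2 (1560 against 82.3 to 823), Rpph1 (1650 against 108 to 872), Gm23935 (11.8 against 0.667 to 5.41) and the snoRNA and scaRNA share (0.0872%). The ninth whole cell library, whose title disagrees with its column name, was high for Lars2 (903 against 26.3 to 259), Rn7s1 (164 against 2.56 to 55.5), Rn7s2 (170 against 2.83 to 43.7), Srp54b (3.3 against 0.0648 to 1.62), Gm8797 (1.01 against 0 to 0.235) and the miRNA share (0.195%). Number 6 was high for Rbfox1 (998 against 146 to 500), Kcnq1ot1 (92.1 against 18.2 to 55) and Alas2 (19.1 against 3.13 to 10.5), and number 3 for Gpr6 (4.34 against 0.41 to 2.28).

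The method effect differed between D1- and D2-MSNs by edgeR's test of the interaction. Among the genes named, it was higher in D1 by 4.78 for Ccn2, 4.25 for Gm15270, 3.93 for Gnb1l, 2.99 for Drd2, 1.78 for Adora2a, 1.51 for Synm and 1.37 for Ide on the log2 scale. The largest in favour of D2 were -8.3 for Gm10180, -7.29 for D130058E05Rik, -6.0 for Gm10123, -5.95 for Gm44454, -5.95 for Gm26645, -5.94 for B430219N15Rik, -5.61 for Gm8430 and -5.58 for Gm27838. The last 8 had no count in 5 or 6 of the 6 whole cell D2 libraries, so their size is set by the prior count of the fit.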

How the results depend on the processing

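Counts of genes higher in RiboTag and in whole cell, 8240 and 19690, moved by over 1.5 times in 6 settings. They were 4087 and 5884 with the study's filters on FPKM, 3152 and 10268 for genes that overlap no other, 60 and 32497 with library totals alone, and 3873 higher in RiboTag for totals without the 10 highest genes. In settings chosen after seeing the data they were 4644 and 6104 for genes above the minimum in both groups, and 4110 and 5077 with background subtraction on such genes. Several of these test fewer genes by construction. Leaving out 1 library at a time gave 7437 to 8338 higher in RiboTag and 19122 to 20574 higher in whole cell. With the ninth library summed with the first the counts were 8206 and 19449. Of 33 list medians, 22 were above 0 on the TMM scale, 20 with DESeq2's size factors, 17 for totals without the 10 highest genes and none with library totals alone. Of 174 called genes among 198 named by rule or added, 86 changed sign with library totals alone, 5 (Fos, Homer1, Mbp, P2ry12 and Gm20388) for totals without the 10 highest genes and 0 with DESeq2.

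The interaction calls, 8 and 23, were 37 and 70 with DESeq2 and 5 and 24 without the ninth library. Without the 6 RiboTag libraries of low Y-linked counts, a setting added after seeing the data, they were 1 and 1. Same-numbered libraries of the groups did not deviate together (correlations of -0.015 to 0.0187), so the numbers were not taken as a pairing. With the replicate block the D1 counts were 7920 and 19522 and the interaction counts 4 and 14. Without the 10 highest genes of either group in the totals, the RiboTag minus whole cell differences in share turned to 5.18 points for protein-coding genes, -4.26 for long non-coding genes, -0.00231 for rRNA and 0.0422 for the mitochondrial genome. Without the ninth library the order of every class of shares stayed.

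Single genes that turned did so with the FPKM filters (Fos -0.19, Homer1 -0.04, Isl1 -0.55, Neat1 -1.12, Npas4 -0.69), with background subtraction (Bdnf 2.74), with the subtraction on genes above the minimum in both groups (Fos -0.23, Gria1 -0.44, Gria2 -0.02, Homer1 -0.08, Isl1 -0.62, Npas4 -0.69, Tac1 -0.01), with that minimum alone (Neat1 -0.89, Npas4 -0.48) and without RiboTag numbers 1 to 4 (Xist -3.29, Tsix -4.42). Of 4572 values of single genes given in the text under alternatives, scaling alternatives read relative to the median of all genes, 4422 kept direction and call, 81 lost and 41 gained a call, 11 moved and 17 turned. The causes were not tested. Depth limits what can be said of genes at 0 in RiboTag, where 3 counts over the group correspond to 0.0783 effective CPM.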
